A study of Mus musculus with 6 samples.

Results

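The genes described here are 60 cytosolic ribosomal protein genes of the mouse, from the Rps and Rpl families and the P-stalk proteins, taken from a fixed list of Ensembl gene IDs. All 60 were found among the 48505 gene IDs in the deposited tables. The tables held anti-m6A immunoprecipitation (IP) reads of pooled fetal hearts of both sexes from wild type FVB/NJ mice, with 3 libraries from sham litters and 3 from nano-TiO2 litters. Dams were 10 weeks old, 14 in number, and were exposed in a whole-body inhalation chamber from gestational day 5, and hearts were taken at gestational day 15. The nano-TiO2 group received titanium dioxide nanoparticle aerosol at a target of 12 mg/m3 for 360 minutes on each of 6 days spread over 8 days, and the sham group received filtered room air. How many litters or hearts went into a pool is not stated, so p-values measure the spread between these 6 libraries only. No symbols stand beside the IDs in the deposited tables, and 0 of the 48505 IDs matched the reference table, so single genes are given by ID, without their place in the ribosome, and lists of cell type markers or other translation genes were not analysed here. The family name and the labelled tissue could therefore not be checked against marker genes.

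Cytosolic ribosomal proteins assemble with ribosomal RNA into the small (Rps) and large (Rpl) subunits that translate nearly all messages of a cell, and the P-stalk proteins recruit translation factors to the large subunit. Their mRNAs are short and abundant, begin with a terminal oligopyrimidine tract, and are translated under the control of the mTOR pathway, so growing tissues such as the fetal heart make large amounts of them. N6-methyladenosine (m6A) is a methylation of adenosine inside mRNA that is bound by reader proteins and is linked to mRNA decay, splicing and translation. In m6A-RIP-seq, fragmented RNA is pulled down with an antibody against m6A, so the IP reads of a gene depend on the amount of its RNA, on the share of it that carries the mark and on unspecific capture.

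The 6 libraries held 20205024 to 31523675 IP reads in windows, recovered from the deposited normalized values. The deposited tables split each gene into windows whose starts lie 25 nucleotides apart, and windows were summed per gene. In total, 4 genes (ENSMUSG00000069917, ENSMUSG00000069919, ENSMUSG00000073940 and ENSMUSG00000052305) took 20.6% to 35.2% of the reads of the sham libraries and 8.03% to 18.0% of those of the nano-TiO2 libraries. Because a few genes took so different a share, the way libraries are scaled to each other bears on the results below. Ribosomal protein genes have many near-identical processed pseudogenes, and how reads shared between copies were counted is not stated, so the level of a single gene is uncertain to that extent.

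The 60 ribosomal protein genes together held 2.63%, 1.79% and 2.58% of all reads in sham libraries 1, 2 and 3, and 1.72%, 1.79% and 1.83% in nano-TiO2 libraries 1, 2 and 3. The sham mean was 2.33% ± 0.472 (SD, n = 3) and the nano-TiO2 mean 1.78% ± 0.0548 (SD, n = 3). The groups overlapped on this scale, since sham 2 lay below nano-TiO2 3. Among the reads outside the 4 genes with the most reads, the family held 3.37%, 2.76% and 3.25% in sham 1 to 3 and 2.10%, 1.95% and 2.15% in nano-TiO2 1 to 3. On this scale all 3 sham libraries lay above all 3 nano-TiO2 libraries, with means of 3.13% ± 0.322 and 2.07% ± 0.107 (SD, n = 3 each). On the deposited scaling the summed level of the family was 730001, 618024 and 773406 in sham 1 to 3, against 388592, 355796 and 416904 in nano-TiO2 1 to 3. No test is given for these sums, because the set was chosen with earlier results of these data known.

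The IP level of nearly the whole family was lower in the nano-TiO2 hearts. Of the 60 genes, 57 were called lower and 0 higher by limma at an adjusted p under 0.05 (57 at an unadjusted p under 0.05), and in the same number all 3 nano-TiO2 libraries lay below all 3 sham libraries. Among all 18566 genes tested, 12% were called lower and 18.5% had groups apart in that direction. Among 789 other genes with a similar number of windows and level, described below, these shares were 46.9% and 59.7%. The estimate was below 0 in 60 of 60 genes on the deposited scaling. It turned above 0 for 2 genes when totals outside the 4 genes with the most reads were made equal, for 4 after quantile normalization and for 6 with equal library totals. The median log2 change was -0.90 (range -1.30 to -0.05), against 0.13 for all genes tested. Changes in level were taken on the log2(value + 1) scale. The middle 50% of the family lay between -1.04 and -0.78. The median ratio of the sham mean to the nano-TiO2 mean was 1.87, and 19 genes were at least 2-fold lower in nano-TiO2 on the deposited scaling, against 0 with equal library totals, 2 with equal totals outside the 4 genes with the most reads and 2 after quantile normalization. In bulk hearts, fewer cells with a high level of these mRNAs and less of the RNA per cell cannot be told apart, nor can less RNA and less of the mark in IP reads alone.

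**Figure D1:**
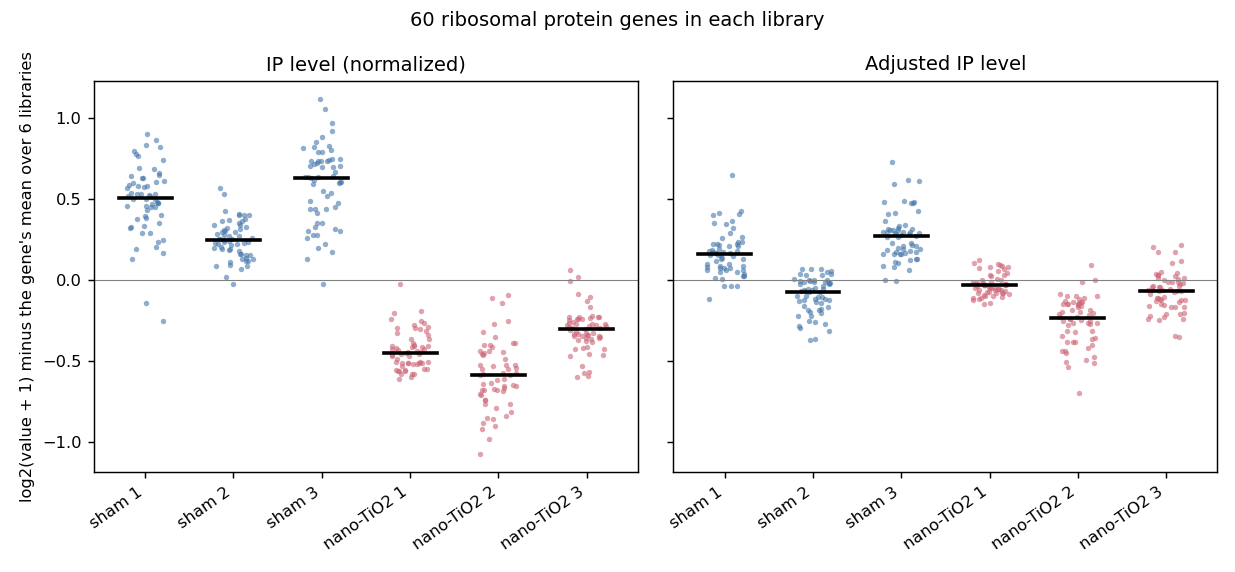
Each point is 1 of the 60 ribosomal protein genes in 1 library, as log2(value + 1) minus that gene's mean over the 6 libraries, and the black bar is the median. In IP level (left, deposited scaling) the medians were 0.51, 0.25 and 0.63 for sham 1 to 3 and -0.45, -0.59 and -0.30 for nano-TiO2 1 to 3; in the adjusted level (right) they were 0.16, -0.07 and 0.28 against -0.03, -0.24 and -0.06.

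How many genes were called depended on the scaling. With TMM factors 57 were called lower, beside 13.9% of all genes, and after a trend on the number of windows was removed 55 were, beside 14.6%. With totals outside the 4 genes with the most reads made equal, 53 were called lower with a median of -0.63, beside 5.45% of all genes. Quantile normalization left 39 lower and 1 higher, with a median of -0.53, beside 15.1% of all genes lower. Equal library totals left 14 lower, with a median of -0.40, beside 0.916% of all genes lower. Equal totals also moved the median of all genes tested, by 0.49 to 0.61. Relative to the median of all genes, the family stood at -1.02 on the deposited scaling, -1.01 with equal totals and -1.02 with equal totals outside the 4 genes. Equal totals multiply each library by a constant, which shifts all genes nearly alike, so this gap could hardly move between these scalings. Where it could move, it was -0.82 with the trend on windows removed and -0.48 after quantile normalization. With the median over tested windows as a gene's level it was -0.65.

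**Figure D2:**
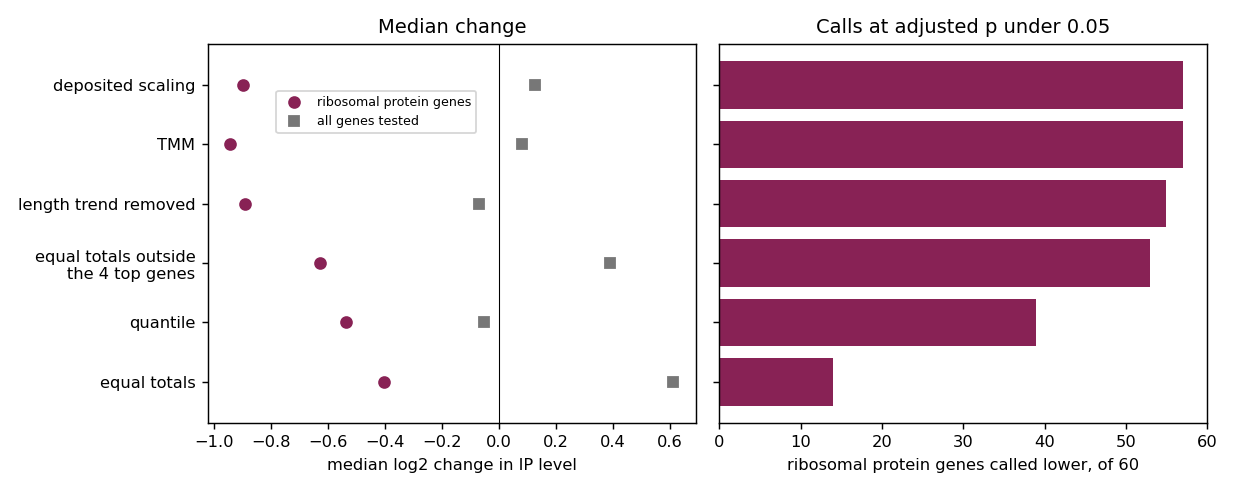
The left panel gives the median log2 change in IP level (nano-TiO2 minus sham) of the ribosomal protein genes (circles) and of all genes tested (squares) under 6 scalings, and the right panel gives how many of the 60 were called lower. The family's median lay below that of all genes under each of the 6 scalings, from -0.90 against 0.13 on the deposited scaling to -0.40 against 0.61 with equal totals, while the count fell from 57 to 14. The deposited, TMM and both equal-total scalings differ only by a constant per library, so the gap between the medians hardly can move among them.

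Among the genes called lower with groups apart, the 6 largest falls were those of ENSMUSG00000008683, ENSMUSG00000024608, ENSMUSG00000007892, ENSMUSG00000045128, ENSMUSG00000039001 and ENSMUSG00000061477. ENSMUSG00000008683 was a long gene for this family (250 windows), and its normalized level was 5453, 3230 and 5859 in sham 1 to 3 and 2106, 1671 and 1975 in nano-TiO2 1 to 3. Its lowest sham library lay well above its highest nano-TiO2 library, and sham 2 was far below the other sham libraries. The log2 change was -1.30 ± 0.23 (SE, limma, adjusted p = 0.0032).

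ENSMUSG00000024608 had the widest spread of the family among the nano-TiO2 libraries. Its normalized level was 25176, 13268 and 27997 in sham 1 to 3, against 11000, 6403 and 9091 in nano-TiO2 1 to 3. The groups did not overlap, but sham 2 lay closer to nano-TiO2 1 than to either other sham library, and the change of -1.29 had the largest SE in the family (0.30, limma, adjusted p = 0.00997). ENSMUSG00000061477 had the same pattern, with 14249, 10112 and 20698 against 8074, 4830 and 6398. Its sham 2 library was again the lowest of the sham group, and the log2 change was -1.19 ± 0.27 (SE, limma, adjusted p = 0.00968).

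The other 3 had a smaller SE. ENSMUSG00000045128, one of the genes with the highest level per window, measured 42689, 29814 and 39207 in sham, against 16738, 14077 and 15821 in nano-TiO2. The nano-TiO2 libraries lay close together and far below the lowest sham library, a log2 change of -1.25 ± 0.17 (SE, limma, adjusted p = 0.00119). ENSMUSG00000007892, the gene with the fewest windows (19), measured 6192, 4342 and 5859 against 2383, 1848 and 2621. Its log2 change was -1.26 ± 0.19 (SE, limma, adjusted p = 0.00178). ENSMUSG00000039001, the gene with the lowest total level, measured 1159, 793.0 and 1168 against 440.8, 360.0 and 552.5, a log2 change of -1.20 ± 0.22 (SE, limma, adjusted p = 0.00348). In all 6 genes of this group sham 2 was the lowest sham library and nano-TiO2 2 the lowest nano-TiO2 library. With equal library totals the calls of ENSMUSG00000024608 (limma, adjusted p = 0.0549) and ENSMUSG00000061477 (limma, adjusted p = 0.0637) were lost, and after quantile normalization that of ENSMUSG00000024608 was (limma, adjusted p = 0.0506).

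Signal per window, which sets genes of different length on 1 scale, ranged from 10.8 to 649 normalized reads with a median of 88.2. The 6 highest were ENSMUSG00000057841, ENSMUSG00000067274, ENSMUSG00000045128, ENSMUSG00000003429, ENSMUSG00000063457 and ENSMUSG00000074129, at 649, 441, 382, 371, 337 and 303. ENSMUSG00000057841 held 4.51% of the family's signal in 38 windows. Its summed level was 34634, 27474 and 37318 in sham, against 16143, 14652 and 17708 in nano-TiO2, with every sham library above every nano-TiO2 library. The log2 change was -1.03 ± 0.16 (SE, limma, adjusted p = 0.00204).

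ENSMUSG00000067274 carried the largest summed level, 5.31% of the family's signal, with 43688, 31751 and 35550 against 23134, 19030 and 21308 and a log2 change of -0.80 ± 0.16 (SE, limma, adjusted p = 0.00576). ENSMUSG00000003429 was the steadiest of these in sham, with 16509, 15871 and 14831 against 8331, 10266 and 9964 and a log2 change of -0.73 ± 0.14 (SE, limma, adjusted p = 0.00425). Its sham 2 library lay between the other sham libraries. ENSMUSG00000063457 measured 12588, 10272 and 11851 against 5301, 4502 and 6044, a log2 change of -1.14 ± 0.15 (SE, limma, adjusted p = 0.00122). ENSMUSG00000074129 measured 32405, 28636 and 41112 against 16891, 14803 and 18692, a log2 change of -1.01 ± 0.17 (SE, limma, adjusted p = 0.00288). The 6 genes with the highest signal per window were thus all called lower on the deposited scaling, by -0.73 to -1.25. With equal library totals the calls of ENSMUSG00000057841, ENSMUSG00000067274, ENSMUSG00000003429 and ENSMUSG00000074129 were lost (limma, adjusted p = 0.0622 to 0.364). After quantile normalization those of ENSMUSG00000067274 and ENSMUSG00000003429 were lost, and that of ENSMUSG00000003429 also after removal of the trend on windows (limma, adjusted p = 0.051). The 10 genes with the largest summed level held 39.5% of the family's signal.

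The family was not uniform. The genes not called in IP level were ENSMUSG00000032399, ENSMUSG00000060036 and ENSMUSG00000058558, named here after their values were seen. ENSMUSG00000032399 measured 13763, 16588 and 20239 in sham, against 16091, 15182 and 17110 in nano-TiO2. The nano-TiO2 libraries lay inside the range of the sham libraries, and the log2 change was -0.05 ± 0.16 (SE, limma, adjusted p = 0.845). This change turned positive without sham 3 (0.09), with totals outside the 4 genes with the most reads made equal (0.22), with equal library totals (0.45) and after quantile normalization (0.50), where it was the gene called higher (limma, adjusted p = 0.025).

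ENSMUSG00000060036 measured 8693, 9053 and 7813 in sham, against 6963, 7457 and 7925 in nano-TiO2. Among the nano-TiO2 libraries only the third lay above the lowest sham library, and the log2 change was -0.19 ± 0.13 (SE, limma, adjusted p = 0.277). ENSMUSG00000058558 measured 11465, 13254 and 20577 against 10997, 9256 and 12823. Its sham 3 library stood far above the other 5, and the log2 change was -0.42 ± 0.23 (SE, limma, adjusted p = 0.181). Under quantile normalization and equal library totals the estimates of both genes lay above 0.

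Each gene was also set against the median of the family in the same library, a fit added after the data were seen. Relative to that median 3 of the 60 were called higher and 0 lower by limma (5 at an unadjusted p under 0.05), beside 62.4% of all genes called higher on that scale. They were ENSMUSG00000032399 at 0.80 ± 0.18 (SE, adjusted p = 0.00279), ENSMUSG00000060036 at 0.65 ± 0.19 (SE, adjusted p = 0.0126) and ENSMUSG00000028495 at 0.46 ± 0.17 (SE, adjusted p = 0.0393). ENSMUSG00000028495 measured 12954, 12613 and 13998 in sham, against 9268, 10432 and 10540 in nano-TiO2, so it was lower in nano-TiO2 with groups apart, by less than the family median. Its log2 change in IP level was -0.39 ± 0.13 (SE, limma, adjusted p = 0.0421). That call was lost without any 1 library other than nano-TiO2 2 (adjusted p = 0.0775 to 0.149), and its estimate turned above 0 under quantile normalization and equal library totals. Its call relative to the family was lost without any 1 library other than sham 2 (adjusted p = 0.0598 to 0.143), and that of ENSMUSG00000060036 without sham 3 (adjusted p = 0.0554). Without sham 2, 7 genes were called relative to the family, 3 higher and 4 lower, beside 11986 higher and 51 lower among 18566 genes.

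The family was also set beside other genes with a similar number of windows and a similar level. Of the genes outside the family, 789 had 34 to 156 windows and a mean level between 2331 and 17817, the 10th to 90th percentiles of the family for both. Among them 370 were called lower in IP level by limma, which is 46.9%, and 35 higher. Their median log2 change was -0.45, with the middle 50% between -0.69 and -0.18, against -0.90 for the ribosomal protein genes. The value of -0.90 is over the whole family, of which only 39 genes lay inside both ranges. The lists are thus matched in part only, and no median is given for those 39 genes alone. The median changes of genes outside the family were also taken by deciles of windows and level. Their mean, weighted by how many of the family lay in each, was -0.46. These are descriptions of the lists, with no test of the difference between them.

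**Figure D3:**
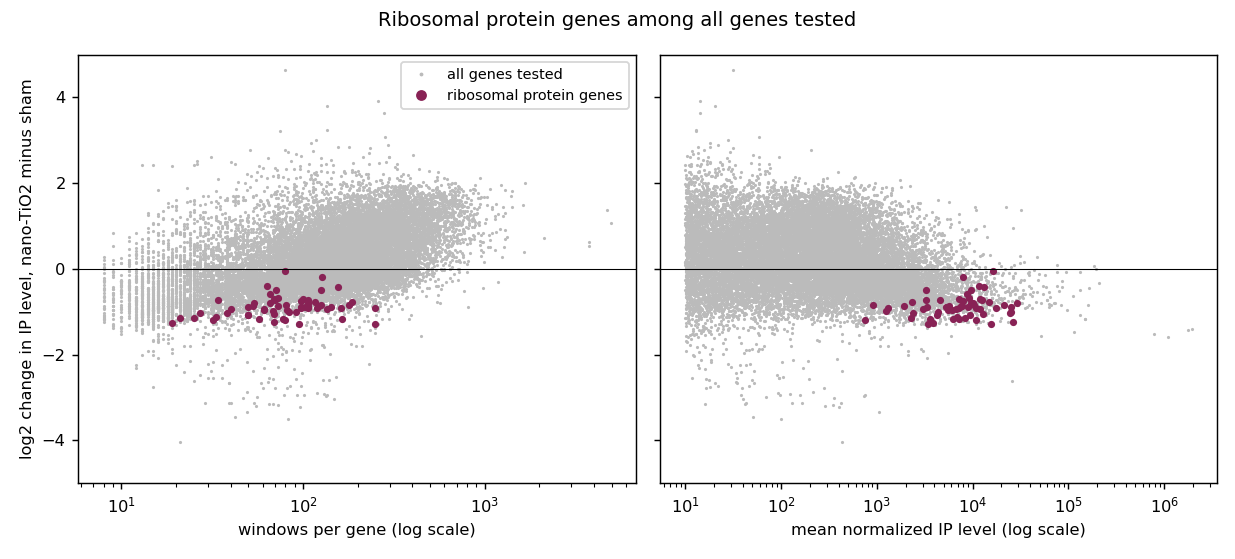
Each point is 1 gene tested, with its log2 change in IP level (nano-TiO2 minus sham, deposited scaling) against its number of windows (left) and its mean normalized IP level (right), both on log axes. The ribosomal protein genes (dark points) lay below 0 in 60 of 60 cases on this scaling (54 of 60 with equal library totals), around a median of -0.90, against 0.13 for all genes.

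Within the family, the 60 genes had 19 to 250 windows, of which 11 to 71 per gene had a mean of at least 10. Genes with more such windows had smaller falls, with a Spearman rho of 0.60 across the 60 genes. The 15 genes with at least 33 such windows had a median log2 change of -0.79, and the 17 with at most 20 had one of -1.07. The rho was 0.29 with the number of all windows and 0.19 with the mean level. These correlations are across genes of the same 6 libraries, which are not independent replicates, and are given as a description.

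The same libraries were low or high in most of the family. Sham 2 was the lowest of the sham libraries in 46 of the 60 genes and nano-TiO2 2 the lowest of the nano-TiO2 libraries in 47, while nano-TiO2 3 was the highest in 49. The median ratio of sham 2 to the mean of sham 1 and 3 was 0.824 in the family, 0.983 in the 789 genes of the same range and 1.04 over all genes tested. Sham 2 was also the library in which the 4 genes with the most reads took the largest share (35.2%). The part of that share in the family's level was not tested. The coefficient of variation of the family had a median of 15.6% in sham and 11.1% in nano-TiO2, against 11.2% and 12.2% in the genes of the same range. Genes in which sham 2 was low had the larger falls, with a Spearman rho of 0.76 across the 60 genes between the sham 2 ratio and the log2 change, 2 measures that share the sham libraries. Without sham 2, 55 of the 60 were called lower with a median of -1.01, beside 1681 of 18566 genes lower. Over the 6 fits that each left out 1 library the count was 54 to 57.

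The deposited adjusted table gave a second level for each gene, in which each gene's windows are the normalized ones divided by 1 factor per gene and library. What that factor was made from is not stated. The factor itself was lower in the nano-TiO2 libraries in nearly the whole family. Its median over the 60 genes was 1.23, 1.25 and 1.19 in sham 1 to 3 and 0.730, 0.774 and 0.823 in nano-TiO2 1 to 3. It was called lower by limma in 56 of the 60 genes and higher in 0, beside 18.2% of 13812 genes called lower. In 56 genes the groups did not overlap, beside 29.4% of all genes with groups apart in that direction. Among the 789 genes of the same range, 54.2% were called lower in the factor and 66.2% had groups apart in that direction. The median log2 change of the factor, taken without adding 1, was -0.66 in the family, -0.47 in the 789 genes of the same range and -0.15 over all genes. All 56 were also among the 57 genes called lower in IP level, an overlap largely fixed because nearly all of the 60 were called in both. The factor is also made from the same normalized values. The overlap over all genes was not computed.

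After division by the factor, the difference in the family was smaller. In the adjusted level 0 of the 60 genes were called by limma, 30 had an unadjusted p under 0.05, and adjusted p-values ran from 0.179 to 0.864. Among all 19361 genes tested, 0% were called and 3592 had an unadjusted p under 0.05. The estimate was still below 0 in 59 of the 60, with a median of -0.23 and a range of -0.49 to 0.03, against 0.17 over all genes and a median that rounds to 0 in the 789 genes of the same range. In 15 genes all 3 nano-TiO2 libraries lay below all 3 sham libraries, beside 2.96% of all genes and 11.2% of the 789 genes of the same range. In 60 of the 60 the change of the factor was larger than that of the adjusted level. This count was not made for other genes. In the 789 genes of the same range the factor also had the larger median change, -0.47 beside a median that rounds to 0. The family's share of the adjusted total was 2.27%, 1.99% and 2.32% in sham 1 to 3, against 2.03%, 1.77% and 1.91% in nano-TiO2 1 to 3, with sham 2 below nano-TiO2 1.

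The count of calls in the adjusted level depended on sham 2. Without sham 2, 27 of the 60 genes were called lower and 0 higher by limma, with a median of -0.33, beside 1.38% of all genes called lower. With array weights, which let libraries that fit their group less well count for less, 34 were called lower, beside 3.43% of all genes. Leaving out each of the other 5 libraries in turn gave 0 calls, with 4 to 30 of the 60 at an unadjusted p under 0.05. In the adjusted level sham 3 was the highest library of all in 44 genes and nano-TiO2 2 the lowest in 51.

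**Figure D4:**
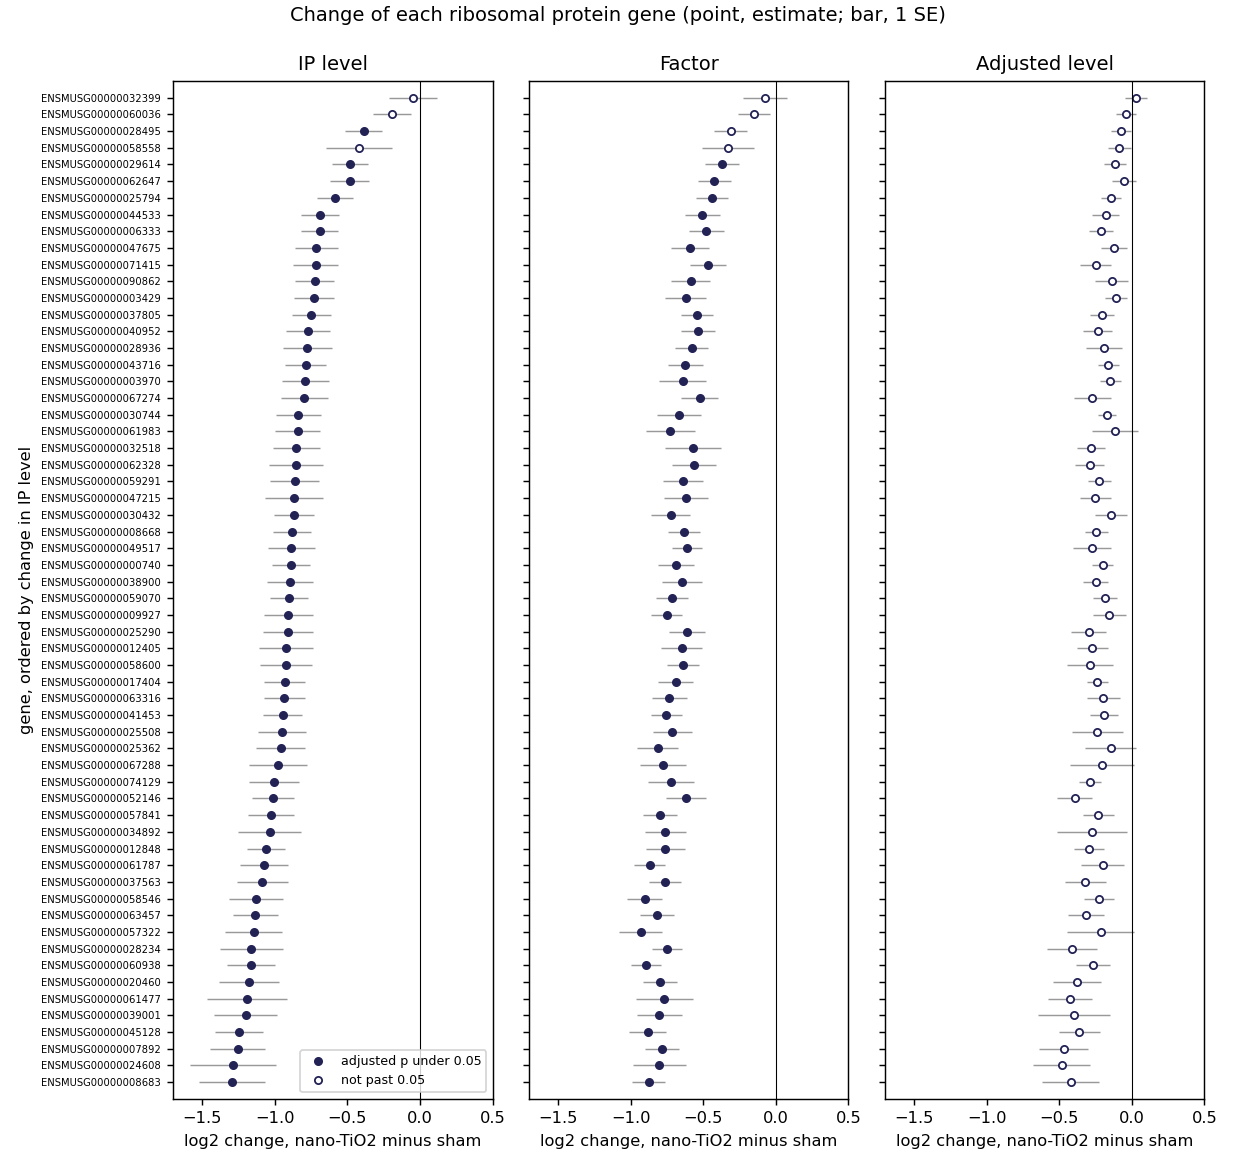
The log2 change (nano-TiO2 minus sham) of each of the 60 genes is shown for the IP level, the factor and the adjusted level, with genes in the order of their change in IP level; bars are 1 SE and filled points have an adjusted p under 0.05 by limma. Filled points number 57, 56 and 0 in the panels from left to right, on the deposited scaling, and the medians move from -0.90 and -0.66 to -0.23.

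The 6 genes with the smallest p in the adjusted level were ENSMUSG00000074129, ENSMUSG00000017404, ENSMUSG00000052146, ENSMUSG00000008668, ENSMUSG00000012848 and ENSMUSG00000032518. ENSMUSG00000074129 had adjusted scores of 29079, 25185 and 27558 in sham, against 23793, 21229 and 21994 in nano-TiO2. The groups did not overlap, though the nearest libraries of the 2 groups differed by less than the libraries within each group did from lowest to highest, and the log2 change was -0.29 ± 0.08 (SE, limma, adjusted p = 0.179). Its factor was 1.11, 1.14 and 1.49 against 0.710, 0.697 and 0.850.

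ENSMUSG00000017404 had adjusted scores of 12996, 11969 and 13078 against 11223, 10534 and 10462, a log2 change of -0.24 ± 0.07 (SE, limma, adjusted p = 0.181), where its IP level had changed by -0.93 ± 0.14 (SE, limma, adjusted p = 0.00189). ENSMUSG00000052146 had 4985, 3945 and 5519 against 3766, 3280 and 3857, a change of -0.40 ± 0.12 (SE, limma, adjusted p = 0.184). ENSMUSG00000008668 had 9729, 8759 and 10141 against 7883, 7806 and 8419, a change of -0.25 ± 0.08 (SE, limma, adjusted p = 0.189). In these genes, too, the groups were apart by less than the sham libraries differed among themselves.

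In the last pair of these 6 the groups overlapped. ENSMUSG00000012848 had adjusted scores of 14512, 12385 and 14549 against 12946, 10337 and 10526, with nano-TiO2 1 above sham 2 (log2 change -0.30 ± 0.10, SE, limma, adjusted p = 0.201). Its IP level, at 18682, 15922 and 17366 against 8126, 8015 and 8743, had the smallest adjusted p of the family (log2 change -1.06 ± 0.13, SE, limma, adjusted p = 0.000827). ENSMUSG00000032518 had adjusted scores of 11905, 10148 and 12090 against 10473, 8711 and 8963 (log2 change -0.28 ± 0.10, SE, limma, adjusted p = 0.204). It was the gene in which sham 2 stood highest relative to sham 1 and 3, at 1.15 times their mean in IP level, and its factor overlapped between the groups, at 1.21, 1.46 and 0.928 against 0.668, 0.785 and 0.949. Of these 6 genes, ENSMUSG00000074129, ENSMUSG00000017404, ENSMUSG00000008668 and ENSMUSG00000032518 lost their call in IP level with equal library totals, and ENSMUSG00000032518 also after quantile normalization (limma, adjusted p = 0.107).

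ENSMUSG00000032399, which did not differ in IP level beyond its spread, had a factor of 0.905, 0.958 and 1.23 against 1.03, 0.865 and 1.02, so the groups overlapped here as well. Across the 60 genes the log2 changes in IP level and in the factor had a Spearman rho of 0.92, and those in the adjusted level and the factor one of 0.49. Both pairs share the normalized values by construction, so these are descriptions only.

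The lower IP level extended over the windows of a gene. The 60 genes had 5420 windows, 1490 of them without a read in any library, and 1700 had a mean of at least 10 and were tested. Of these 1208 were called lower and 0 higher by limma, in 57 of the genes, beside 7.32% of all 250317 windows called lower. The count was 750 without sham 1, beside 2.93% of all windows, and 795 with TMM factors computed on windows, beside 2.82%. In the median gene of the family 88.0% of the tested windows were called lower. This share per gene was not computed for other genes. The window with the most signal held 3.28% to 20.1% of a gene's signal. It was called lower in 53 of the 60 genes, with log2 changes of -1.30 to -0.11 and a median of -0.90. The share for the top windows of all genes was not computed. Windows with more signal were called lower more often in all genes. With a minimum mean of 50, 1241 of 1453 windows of the family were called lower, beside 34.8% of all 57169 windows. Fragments were longer than the step between windows, so neighbouring windows may share fragments and are not independent.

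The signal lay along the genes in nearly the same way in both groups. Each gene's windows were cut into 10 bins in the order of their starts. Bin 1 held a mean share of a gene's signal of 5.87% ± 0.124 in sham, against 5.88% ± 0.148 in nano-TiO2 (SD, n = 3 each). The bin with the most signal, bin 6, held 12.1% ± 0.127 and 12.1% ± 0.112, and bin 10 held 5.85% ± 0.0456 and 5.98% ± 0.113 (SD, n = 3 each). The share of a gene's signal that lay at the same place in the mean profiles of both groups had a median of 97.5% and ranged from 82.9% to 98.8%.

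**Figure D5:**
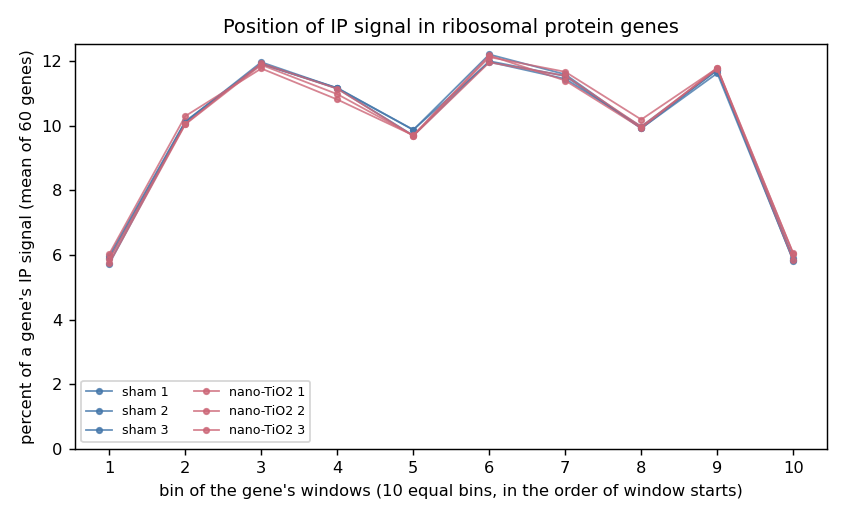
The mean percent of a gene's IP signal over the 60 ribosomal protein genes is shown for 10 equal bins of the gene's windows, in the order of their starts, with 1 line per library. The 6 lines lie almost on each other, from group means of 5.87% and 5.88% in bin 1 to 12.1% in bin 6.

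A window that changes apart from the rest of its gene was tested with limma's diffSplice. That test pools the variance over the tested windows of a gene and takes them as independent, which neighbouring windows may not be. Its p-values are therefore uncertain, most of all for windows with few reads. Among the 1700 windows of the family, 2 were called and 63 had an unadjusted p under 0.05, beside 0.0465% of 249423 windows called in all genes. In ENSMUSG00000000740 the window starting at 1126, the 46th of 103, had a normalized level of 42.3, 40.5 and 35.1 in sham, against 34.6, 26.5 and 37.9 in nano-TiO2. The groups overlapped in that window, while the gene as a whole was lower (34536, 31074 and 33039 against 16863, 17482 and 18893, log2 change -0.89 ± 0.13, SE, limma, adjusted p = 0.00156). With equal library totals the call of the gene was lost (limma, adjusted p = 0.123). The log2 change of the window (-0.26) lay 0.63 above that of the rest of its gene (limma diffSplice, adjusted p = 0.00626).

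In ENSMUSG00000074129 the window starting at 2040, the 82nd of 84, held 8 to 23 reads per library. Its level was 14.4, 9.86 and 10.8 in sham, against 8.93, 19.0 and 14.5 in nano-TiO2, with the groups overlapping. The log2 change of this window (0.21) lay 1.17 above that of the rest of the gene (limma diffSplice, adjusted p = 0.0124). Neither window differed between the groups on its own (limma, adjusted p = 0.548 and 0.771). The count of such windows moved with single libraries: it was 1 without sham 2, 4 without sham 3 and 4 without nano-TiO2 2.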

How the data were processed

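Pooled fetal heart RNA (3 µg) was fragmented to about 250 to 350 nucleotides, bound to 5 µg of anti-m6A antibody and amplified over 10 PCR and 8 indexing cycles, per the labels' protocols. The submitters' processing notes name the build GRCm39 and the tools DESeq2 1.34.0, HISAT2 2.2.1 and Salmon 1.5.2, without their roles; how windows were made and whether strand was used is not stated in the sources. The authors deposited a normalized table of IP signal (5193362 windows, no unit named), in which 100% of values were multiples (to within 0.0001) of what 1 read is worth in that library, so whole read counts were recovered. The adjusted table the authors deposited gives scores rounded to whole numbers; in 162014 gene and library pairs with reads they equalled the normalized values divided by 1 factor, with 0 exceptions, and the factor was bounded within a relative width of 0.2 for 13812 genes. The remaining table was identical to the normalized one and was not used. Input libraries were not analysed here.

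Gene levels are sums over windows. Features whose mean reached 10 entered limma 3.58.1 (R 4.3.3) with a variance trend and no covariates, on log2(value + 1), with two-sided p-values adjusted by Benjamini-Hochberg over all features tested and called at 0.05. Windows within genes were tested with diffSplice. The factor was the midpoint of the bounds that a gene's windows set in each library. It was fitted as its log2, without adding 1, with the variance trend on the mean IP level. This trend was chosen after the planned one failed on simulated data, and the planned one and no trend are alternatives. The alternatives on recovered counts used edgeR 4.0.16 and DESeq2 1.42.0. The main fits of the IP level, adjusted level, factor, windows and windows within genes were tested on simulated data, as were edgeR and DESeq2. The fit relative to the family's median, the block, array weights and the other scalings were not. Simulated windows were independent, which neighbouring windows may not be. Tables and figures used Python 3.11.15, NumPy 2.4.6, pandas 2.3.3 and matplotlib 3.10.9. The 60 genes, gene lists and tests were chosen with earlier results of these data known. Named genes were the 6 with the highest IP level per window, the 6 largest called falls and rises (there were 0 called rises), the 6 smallest p-values in the adjusted level and genes with a window called within genes; others are marked as chosen after their values were seen. PCR reads without molecular identifiers are not independent molecules.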

Additional observations from a re-analysis of the deposited data

How the results depend on the processing

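Over 3 against 3 libraries, the direction of the family's IP change was the same under each alternative run, and its count of calls was within 1.5 times the main one (57) except with equal library totals (14). Fits without 1 library gave 54 to 57 calls in IP level, beside 1569 to 2139 of 18566 genes lower. They gave 38 to 55 in the factor, beside 917 to 2654 of 13812 lower, and 0 to 27 in the adjusted level, beside 0 to 267 of 19361 lower. Relative to the family's median they gave 2 to 7, beside 9258 to 12037 of 18566 called. Windows numbered 750 to 1058 in IP level, beside 7334 to 14435 of 250317 lower, and 1 to 4 within genes, beside 87 to 170 of 249423 called. edgeR and DESeq2 on recovered counts each called 57 lower, beside 2276 of 18566 and 2472 of 18535 genes. Pseudocounts of 0.5 and 10 gave 57, beside 2222 and 2233 of 18566 genes, and no filter 56, beside 1945 of 33538. The median over windows gave 53, beside 2085 of 8877 genes lower and a median of -0.24 over all genes. In the adjusted level array weights gave 34 calls, and TMM, quantile normalization, both pseudocounts and no filter gave 0. With TMM the family's median in the adjusted level was -0.39, against 0.007 over all genes. There 48 of the 60 had an unadjusted p under 0.05 by limma, beside 2791 of 19361 genes. The factor gave 51 calls with libraries centred, 55 with the planned trend and 54 with no trend, beside 1465, 2661 and 2175 of 13812 genes lower. TMM on windows gave 795 windows (2.82% of all windows lower). A minimum mean of 50 gave 1241 in IP level (34.8% of all windows lower) and 0 within genes, since both windows called within genes lie under that minimum and were not tested (20 others had an unadjusted p under 0.05).

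Over all genes, the deviations of same-numbered libraries had correlations of -0.365, 0.177 and 0.0236, not all of them over 0.1, so the numbers were not taken as pairs. Within the family, library 2 was the lowest of its group in 46 genes in sham and 47 in nano-TiO2, and library 3 the highest in 36 and 49. With the replicate number as a block the counts were 56 in IP level (ENSMUSG00000028495 lost its call, limma, adjusted p = 0.0518), 50 in the factor and 0 in the adjusted level. They were 10 relative to the family's median (6 higher, 4 lower), 1245 windows in IP level and 1 window within genes. In the adjusted level the block left 48 of the 60 at an unadjusted p under 0.05, beside 4760 of 19361 genes. The smallest adjusted p of the family there was 0.0515 (limma), just over the threshold. Over all features the block called 2224 of 18566 genes lower in IP level, 1557 of 13812 in the factor and 21374 of 250317 windows. Relative to the family's median it called 12952 of 18566 genes.

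Of the 21 named genes tallied here, 4 changed sign. ENSMUSG00000028495 had 0.13 under quantile normalization and 0.11 with equal totals. ENSMUSG00000060036 had 0.23 and 0.30, and 0.078 with equal totals outside the 4 genes. ENSMUSG00000032399 had 0.50, 0.45 and 0.22 under these, and -0.186 to 0.092 without 1 library each, the positive value without sham 3. Its adjusted level ran from -0.022 to 0.076 without 1 library each (below 0 without sham 1 and without nano-TiO2 2) and was -0.13 with TMM. ENSMUSG00000058558 had 0.12 under quantile normalization and 0.077 with equal totals. Of the other genes, named after their values were seen, ENSMUSG00000029614 (0.014) and ENSMUSG00000062647 (0.013) lay above 0 with equal totals; in the adjusted level 54 to 60 of the 60 lay below 0 in fits without 1 library, the lowest number without sham 3. The cause was not tested. Of 378 values for 21 named genes in IP level, 342 kept direction and side of the threshold and 25 lost the call; of 273 in the adjusted level, 241 kept both and 29 gained a call. With 3 libraries a group and depths of 20205024 to 31523675 reads, windows with few reads carry little weight.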
